A study of Mus musculus with 6 samples.

Results

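The genes described here are those of channels, pumps and exchangers, most of which let calcium into the cytosol or remove it. The cells are N18, a mouse neuroblastoma line, after silencing of Rest. Members were chosen by gene symbol from the array annotation. They are the pore, alpha2delta, beta and gamma subunits of voltage-gated calcium channels (Cacna, Cacnb, Cacng), the TRPC, TRPM and TRPV channels, the IP3 and ryanodine receptors, Orai and Stim, the calcium pumps (Atp2a, Atp2b, Atp2c) and the sodium-calcium exchangers (Slc8a). The symbols gave 64 genes on 134 spots, of 19087 genes that spots naming a single gene represent, and all 134 spots had a value on all 6 arrays. Of the 64 genes, 33 had 1 spot and 31 had several. Trpc4ap matched the symbol rule but encodes a protein that associates with TRPC4 and is no channel, and it is kept under that description. Another 4 spots whose annotation joins a member with other genes (Ryr3 with Aven, Trpc2 with Xntrpc and Xndc1) were left out, and their mean log2 ratios lay between -0.053 and 0.032.

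Each of the 6 arrays compared N18 cells given an siRNA to Nrsf, an older name of Rest, with N18 cells given a scrambled siRNA. The siRNA sample was in Cy5 on arrays 1 to 3 and in Cy3 on arrays 4 to 6. Neither the cells' age and passage nor the time after transfection is given in the sources used here, and the sources do not say whether the 6 samples came from separate transfections. The p-values therefore measure the spread between these samples, which may be partly technical. N18 is 1 line, so the values describe that line.

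Calcium enters a neuron through voltage-gated channels of the plasma membrane, whose pore subunits travel with alpha2delta and beta subunits, and through more slowly gated TRP channels. It is also released from the endoplasmic reticulum through IP3 receptors, which open on IP3 made by phospholipase C, and through ryanodine receptors. Stim proteins sense an emptied store and open Orai channels. Pumps of the endoplasmic reticulum (SERCA), the plasma membrane (PMCA) and the Golgi (SPCA), together with sodium-calcium exchangers, bring cytosolic calcium back down. REST is a zinc finger repressor that binds the RE1 element and is known for holding neuronal genes, ion channel genes among them, low outside the nervous system.

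Values are log2 ratios of Nrsf siRNA over scrambled siRNA, so 0 means no difference and a positive value means a higher transcript level with the siRNA. No source states the log base. It was read as 2, the common choice for arrays, and folds would be larger if it were the natural log. The direction is likely rather than settled. The sample names put Nrsf first on arrays 1 to 3 and scrambled first on arrays 4 to 6, so their order alone gives no common direction. Named spots correlated positively between the 2 dye orientations, so all 6 arrays were read in the direction that the names of arrays 1 to 3 give. With the opposite numerator each rise here would be a fall and each fall a rise. A ratio gives no level, so whether a member is expressed in N18 cells, and whether the cells carry neuroblastoma markers at high level, cannot be read from these values. In RNA from whole cultures, fewer cells with a transcript and less transcript per cell cannot be told apart. Rest itself had log2 ratios of -0.16, -0.34 and -0.33 on arrays 1 to 3 and of -0.27, -0.50 and -0.49 on arrays 4 to 6. It was below 0 on every array, and its mean of -0.35 ± 0.13 (SD, n = 6) is 78.5% of the scrambled level, or 1.27 times it with the opposite numerator (adjusted p = 0.0035; exact two-sided sign-flip permutation p = 0.03125, the smallest that 6 arrays can give). Rest is the target of the siRNA, and a value below 0 is the sign that silencing gives with the direction taken here. The 3 spots of Rest had means of -0.05, -0.44 and -0.55. Array 1 stood apart: across named spots it correlated with the other arrays at 0.295 to 0.377, while the pairs among arrays 2 to 6 gave 0.531 to 0.82. Its named spots also lay lower at both ends. Their 5th percentile was -0.593 where arrays 2 to 6 had -0.299 to -0.248, and their 95th was 0.16 where arrays 2 to 6 had 0.264 to 0.35. Results that turn on array 1 are given with and without it.

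Most calcium channel, pump and exchanger genes moved little. Of the 64 genes, 2 rose past an adjusted p of 0.05 over all 19019 genes tested (limma, Benjamini-Hochberg), the IP3 receptor gene Itpr3 and the Golgi pump gene Atp2c1, and 0 fell. That is 3.12% of the members, beside 15.0% of all genes tested, of which 5.88% rose and 9.11% fell. At an unadjusted p under 0.05 there were 8 members, 6 above and 2 below 0, which is 12.5% beside 25.7% of all genes. The members' mean ratios ran from -0.081 to 0.28, with 41 above and 23 below 0. Their median was 0.010, against 0.0025 over all genes, and on single arrays it lay between 0.005 and 0.023. The median absolute ratio was 0.021 for members and 0.034 for all genes. A ratio beyond 0.1 in either direction was seen in 4 members (6.25%), against 23.7% of all genes. No member reached a 1.5-fold difference, which 193 of all genes did.

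The intervals of most of the remaining gene means were narrow. For 60 of the 62 members that did not pass the test (96.8%), the 95% confidence interval lay within a 1.2-fold difference in either direction. The same held for 91.5% of all genes that did not pass. The exceptions were the pump gene Atp2c2 and the channel gene Trpm2. These intervals assume the log2 scale, and they hold for the mean over a gene's spots, not for each spot. Single spots had intervals that reached beyond 1.2-fold. Among them were spots of Atp2a2 (0.41, interval 0.19 to 0.63), Atp2b1 (0.26, 0.14 to 0.38) and Trpm7 (-0.24, -0.31 to -0.17). The mean of the Atp2a2 spot was itself beyond 1.2-fold (1.33-fold), and those of the Atp2b1 and Trpm7 spots were just under it (1.195-fold and 1.18-fold). Whether a member is expressed cannot be read from a ratio. A narrow interval near 0 therefore does not show that an expressed gene stayed unchanged. The median SD over the 6 arrays was 0.054 for members and 0.078 for all genes. A member above 0 on all 6 arrays was seen 5 times (Itpr3, Atp2b1, Atp2b3, Atp2c1 and Trpc4ap), where 6.30% of all genes were. Trpm7 and Trpv4 were below 0 on all 6 arrays, as 11.6% of all genes were. For comparison, the potassium and HCN channel genes held 3 genes that rose and 1 that fell among 87 (4.60%), and 1 of 10 voltage-gated sodium channel subunit genes rose; the difference between these groups and the calcium genes was not tested.

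**Figure D1:**
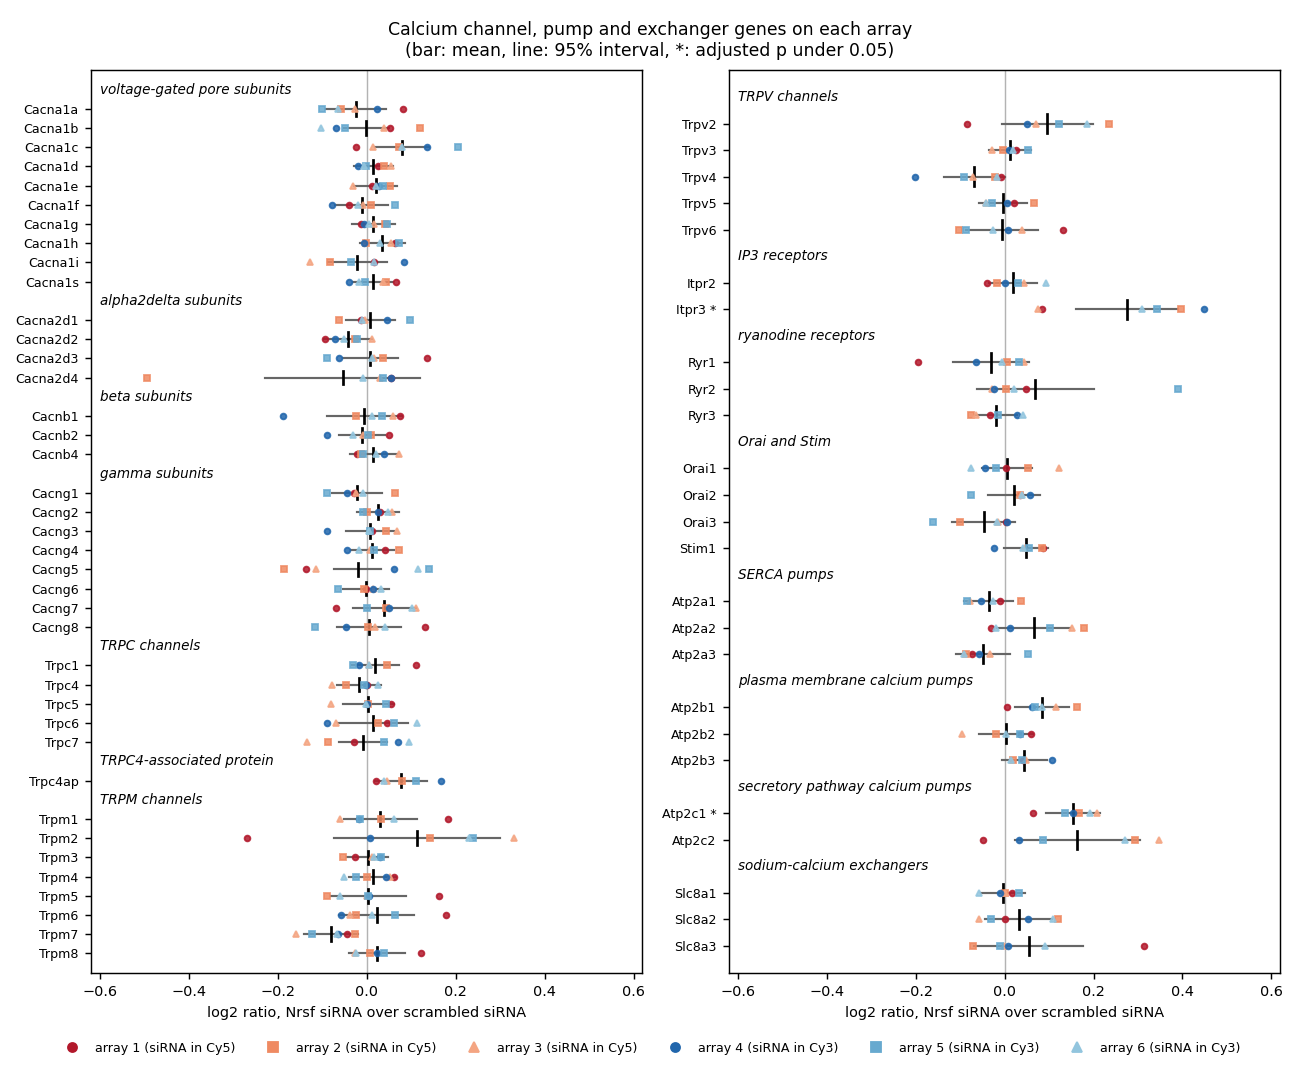
Log2 ratio of Nrsf siRNA over scrambled siRNA (x axis) for each of the 64 genes (y axis), grouped by protein class. Points are the 6 arrays, red with the siRNA sample in Cy5 and blue with it in Cy3, bars are means and lines 95% confidence intervals; most genes lie close to 0, and Itpr3 and Atp2c1 (asterisks) have all 6 points above 0.

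**Figure D2:**
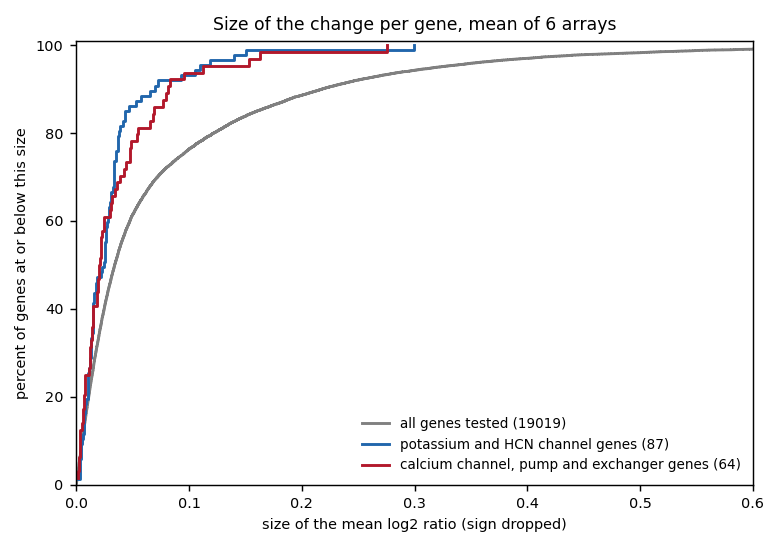
Size of the mean log2 ratio for the 64 calcium genes beside all genes tested and the 87 potassium and HCN channel genes. The median size is 0.021 for members, 0.034 for all genes and 0.0245 for the potassium and HCN channel genes. Beyond 0.1 lie 4 members (6.25%) and 6 potassium and HCN channel genes (6.9%).

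Among the release channels of the endoplasmic reticulum, Itpr3 rose and its relative Itpr2 did not pass the test. Itpr3 encodes the type 3 IP3 receptor, a calcium channel opened by IP3. Its ratios were 0.083, 0.396 and 0.074 on the arrays with the siRNA in Cy5, and 0.449, 0.342 and 0.308 on those with it in Cy3. All 6 were above 0, and arrays 1 and 3 were the lowest, well under the other 4. The mean of 0.28 ± 0.16 (SD, n = 6; SE 0.048; adjusted p = 0.012) is a 1.21-fold higher level. This was the largest mean ratio among the 64 genes, and it ranked 1277 by size among all genes tested. Itpr3 was read by 1 spot only, so no other spot bears on it. The call was lost without array 4 (adjusted p = 0.056), array 5 (0.060) or array 6 (0.050), while the mean stayed between 0.25 and 0.29. Itpr2, with 7 spots, had a mean of 0.018 ± 0.047 (adjusted p = 0.73). Itpr1 was not analysed here.

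The start of Itpr3 is shown because it is the member with the largest ratio. RefSeq's promoter table for mouse build GRCm38.p6 gives a window of 250 bases before to 50 after each start, and it held 69 windows for 53 of the 64 members. The letters searched, on both strands, were AGCACC and GGACAG, 6-letter cores from the left and the right side of the RE1 element. Capitals mark a match, written as it reads on the printed strand, so GGTGCT is AGCACC on the other strand. The Itpr3 window lies at chr17:27057054-27057353 on the + strand, and its match begins 215 bases before the start.
Itpr3: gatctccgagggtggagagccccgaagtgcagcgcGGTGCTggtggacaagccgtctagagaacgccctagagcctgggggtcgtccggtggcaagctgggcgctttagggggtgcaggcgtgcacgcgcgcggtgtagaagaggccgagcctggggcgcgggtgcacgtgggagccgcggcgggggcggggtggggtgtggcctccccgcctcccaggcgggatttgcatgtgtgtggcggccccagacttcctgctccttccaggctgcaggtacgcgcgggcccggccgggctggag

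AGCACC was present in 6 of the 69 member windows (8.70%) and in 16.2% of all 32851 windows in the table. GGACAG was present in 17 member windows (24.6%) and in 22.2% of all. The full RE1 consensus was found in 21 of all windows (0.064%) and in 0 of the members' windows. A match to 6 letters is a description of these windows and not a binding site, and the full element can lie far outside them.

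The ryanodine receptors, the other release channels, did not pass the test. Their means were -0.031 ± 0.089 for Ryr1, the form best known from skeletal muscle, 0.068 ± 0.16 for Ryr2, the form best known from heart and also found in brain, and -0.020 ± 0.047 for Ryr3. The Ryr2 mean came from 1 spot on 1 array. That spot read 1.47 on array 5, where the remaining arrays gave -0.056 to 0.050, while the other 3 Ryr2 spots had means between -0.018 and 0.033.

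Among the pumps, both SPCA genes had ratios above those of the other 6 pump genes, and Atp2c1 passed the test. Atp2c1 encodes SPCA1, which loads the Golgi with calcium and manganese. Its gene ratios, the mean of 4 spots, were 0.064, 0.17 and 0.21 with the siRNA in Cy5 and 0.15, 0.14 and 0.19 with it in Cy3. All 6 were above 0 and array 1 was the lowest. The mean was 0.15 ± 0.051 (SD, n = 6; SE 0.025; adjusted p = 0.010), a 1.11-fold higher level. The 4 spots did not move together. One read 0.098, 0.51, 0.476, 0.426, 0.631 and 0.589 on arrays 1 to 6, with a mean of 0.46 ± 0.19 (adjusted p over all spots 0.0048). The other 3 had means of 0.12, 0.023 and 0.017 and did not pass. The last 2 of these are annotated to the same transcript record as the spot that rose. With the median of the spots in place of the mean, Atp2c1 stood at 0.090 and was no longer called (adjusted p = 0.078), and without array 6 its adjusted p was 0.055. Neither Itpr3 nor Atp2c1 passed in a test without moderation of the variance (adjusted p = 0.086 and 0.053) or on the Cy5 arrays alone (0.45 and 0.32).

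Atp2c1 has 2 windows in the promoter table, shown because the record holds separate starts and the spots differ. The upstream one lies at chr9:105521208-105521507 on the - strand, with GGACAG beginning 188 bases before its start. The downstream one lies at chr9:105495084-105495383 on the - strand and holds neither set of letters.
Atp2c1 upstream start: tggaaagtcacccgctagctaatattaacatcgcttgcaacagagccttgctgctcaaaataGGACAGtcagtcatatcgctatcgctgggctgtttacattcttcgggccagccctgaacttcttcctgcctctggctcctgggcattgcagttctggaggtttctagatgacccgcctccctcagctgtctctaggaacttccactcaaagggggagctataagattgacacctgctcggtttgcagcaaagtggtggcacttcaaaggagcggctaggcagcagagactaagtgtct
Atp2c1 downstream start: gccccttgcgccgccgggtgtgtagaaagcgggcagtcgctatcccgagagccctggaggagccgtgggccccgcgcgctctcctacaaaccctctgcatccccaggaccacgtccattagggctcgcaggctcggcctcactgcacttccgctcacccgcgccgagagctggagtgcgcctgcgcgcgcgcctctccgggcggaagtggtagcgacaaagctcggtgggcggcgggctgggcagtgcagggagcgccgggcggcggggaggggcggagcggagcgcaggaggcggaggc
The windows differ in CpG content, with 8 CpG in the upstream and 36 in the downstream one. The deposited values do not say which start was used.

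Atp2c2, which encodes the second SPCA pump, had ratios of -0.048, 0.292 and 0.348 in Cy5 and 0.031, 0.085 and 0.27 in Cy3. Arrays 1 and 4 were near 0, the others above it. Its mean of 0.16 ± 0.16 was as large as that of Atp2c1, but its wider spread left it short of the test (adjusted p = 0.13). Without array 1 it passed, at 0.22 (adjusted p = 0.0022).

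The plasma membrane pump Atp2b1 (PMCA1) was above 0 on every array, from 0.006 to 0.16 with a median of 0.077, and its mean of 0.083 ± 0.053 did not pass (adjusted p = 0.083). It passed with the median of the spots (0.093, adjusted p = 0.033), with quantile normalization (0.039) and with array weights (0.0067). It also passed with the first spot per gene (0.019), but for Atp2b1 that spot is the one that rose, so this adds nothing to it. A single one of its 4 spots rose, at 0.26 ± 0.13 (adjusted p = 0.020), with all arrays between 0.125 and 0.458; the other 3 had means of -0.027, 0.018 and 0.084. The neuronal forms Atp2b2 and Atp2b3 had means of 0.0025 ± 0.056 and 0.044 ± 0.033. The SERCA pump Atp2a2, which refills the endoplasmic reticulum in most cells, showed the same kind of split. One of its spots rose, with ratios of 0.115, 0.856, 0.703, 0.195, 0.404 and 0.2 and a mean of 0.41 ± 0.30 (adjusted p = 0.033). Its other 3 spots had means of -0.084, -0.051 and -0.015, and the gene mean was 0.066 ± 0.090 (adjusted p = 0.31). Atp2a1 and Atp2a3, the forms known from skeletal muscle and from blood and epithelial cells, had means of -0.036 ± 0.045 and -0.049 ± 0.054 and did not pass.

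The 10 pore subunit genes of voltage-gated calcium channels had mean ratios between -0.025 and 0.080, 6 above and 4 below 0, and none passed the test. Cacna1c, the L-type pore gene, had the highest mean. Its ratios ranged from -0.026 on array 1 to 0.205 on array 5 with a median of 0.076, and its mean was 0.080 ± 0.083 (adjusted p = 0.092). Its dye orientations did not overlap, with means of 0.020 in Cy5 and 0.14 in Cy3. Such separation was seen in 11 of the 64 members and in 18.1% of all genes, and the dye term itself passed the test for 0 genes. That count does not show that a dye effect is absent. Over all spots, the dye term passed for the spot of S100a6, a partner gene given below (limma, adjusted p = 0.023). Cacna1h, a T-type pore gene, had a mean of 0.035 ± 0.034 (adjusted p = 0.41). One of its 3 spots rose by a small amount, at 0.10 ± 0.046 with all arrays between 0.039 and 0.152 (adjusted p = 0.043), and the others had means of 0.0053 and -0.0048. The P/Q-type and N-type pore genes Cacna1a and Cacna1b, which serve transmitter release, had means of -0.025 ± 0.067 and -0.0018 ± 0.085. The L-type gene Cacna1d stood at 0.015 ± 0.029 and the R-type gene Cacna1e at 0.020 ± 0.028.

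The auxiliary subunits also stayed near 0, with no gene past the test among 4 alpha2delta, 3 beta and 8 gamma genes. The alpha2delta subunits, which carry the pore to the membrane and bind gabapentin in part, ran from -0.055 to 0.0079. Cacna2d2 had a mean of -0.043 ± 0.038 (adjusted p = 0.31) from 4 spots of 1 transcript record. A single spot of these fell, at -0.19 ± 0.13 (adjusted p = 0.028), with arrays 2 and 3 at -0.013 and -0.023 and the other 4 between -0.287 and -0.246. Its other 3 spots had means between -0.001 and 0.013. Cacna2d4 had the lowest class mean, -0.055 ± 0.22, through array 2 alone, at -0.494; the other 5 arrays lay between -0.009 and 0.054. The beta genes Cacnb1, Cacnb2 and Cacnb4 ran from -0.011 to 0.014. The gamma genes, several of which encode AMPA receptor partners rather than calcium channel subunits in brain, ran from -0.022 for Cacng1 to 0.039 for Cacng7.

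None of the 18 TRP channel genes passed the test as a gene. The 5 TRPC channels, which open downstream of phospholipase C, stayed between -0.018 for Trpc4 and 0.019 for Trpc1. Among the 8 TRPM channels, Trpm7 had the lowest mean of all 64 members. Trpm7 encodes a magnesium and calcium channel fused to a kinase. Its gene ratios were below 0 on all 6 arrays, from -0.16 to -0.026 with a median of -0.066, and the mean of -0.081 ± 0.050 did not pass (adjusted p = 0.087). Of its 2 spots, 1 fell, reading -0.245, -0.106 and -0.252 in Cy5 and -0.222, -0.274 and -0.335 in Cy3. That spot's mean was -0.24 ± 0.076 (adjusted p = 0.0042), the smallest adjusted p of the 134 spots. The second spot, from another transcript record, had a mean of 0.077 ± 0.096.

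The Trpm7 window is shown as that of the member with the lowest mean. It lies at chr2:126876212-126876511 on the - strand, with GGACAG beginning 129 bases before the start.
Trpm7: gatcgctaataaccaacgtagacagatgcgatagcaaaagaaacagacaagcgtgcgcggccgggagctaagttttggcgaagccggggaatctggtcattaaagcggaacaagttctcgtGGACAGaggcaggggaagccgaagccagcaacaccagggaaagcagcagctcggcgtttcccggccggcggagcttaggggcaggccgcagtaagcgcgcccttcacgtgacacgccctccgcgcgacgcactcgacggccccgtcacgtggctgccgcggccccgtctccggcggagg

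Trpm2, a channel opened by ADP-ribose under oxidative stress, spread widely. Array 1 gave -0.271, where the remaining arrays gave 0.006 to 0.331, with a mean of 0.11 ± 0.22 (adjusted p = 0.47). Among the 5 TRPV channels, Trpv2 had the highest mean, 0.096 ± 0.11 (adjusted p = 0.23), with array 1 at -0.086 below the others. Trpv4, opened by cell swelling and warmth, had the lowest, -0.069 ± 0.074 (adjusted p = 0.19), with array 4 at -0.203. Trpv3, Trpv5 and Trpv6 lay between -0.0068 and 0.012. Trpc4ap had a gene mean of 0.077 ± 0.055 (adjusted p = 0.088). One of its 5 spots passed the test at 0.24 ± 0.30 (adjusted p = 0.018), with -0.226, 0.1 and 0.089 in Cy5 and 0.533, 0.497 and 0.465 in Cy3. The orientations of that spot did not overlap, and it did not pass without the dye term (adjusted p = 0.24).

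The store-operated genes and the exchangers did not pass the test. Stim1, the store sensor, had a mean of 0.048 ± 0.040 (adjusted p = 0.21). The channel genes Orai1 and Orai2 stood at 0.0058 ± 0.072 and 0.021 ± 0.048, and Orai3 at -0.048 ± 0.068 (adjusted p = 0.42). The sodium-calcium exchanger Slc8a1 had 8 spots, the most of any member, with means between -0.11 and 0.094 and a gene mean of -0.0029 ± 0.031. Slc8a2 stood at 0.032 ± 0.074. Slc8a3 stood at 0.054 ± 0.14, with array 1 at 0.313 and the others between -0.072 and 0.090.

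Read spot by spot, 8 of the 134 member spots passed the test over all 43530 spots, 6 higher (4.48%) and 2 lower (1.49%). That is 5.97%, beside 11.1% of all spots, of which 4.21% were higher and 6.85% lower. The 8 spots belong to 8 genes (Itpr3, Atp2c1, Atp2b1, Atp2a2, Cacna1h, Trpc4ap, Trpm7 and Cacna2d2). For 7 of these genes other spots exist, and none of the other spots passed. On leaving out each array in turn, the spots of Atp2c1 and Trpm7 passed every time, and each of the other 6 failed at least once. Without moderation of the variance 0 of the 134 spots passed (limma's fit, 19 at an unadjusted p under 0.05). Of the 31 members with several spots, 21 had spot means within 0.1 of each other and 8 had a span over 0.2, with a median span of 0.068. Which part of a transcript each spot reads was not analysed here.

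**Figure D3:**
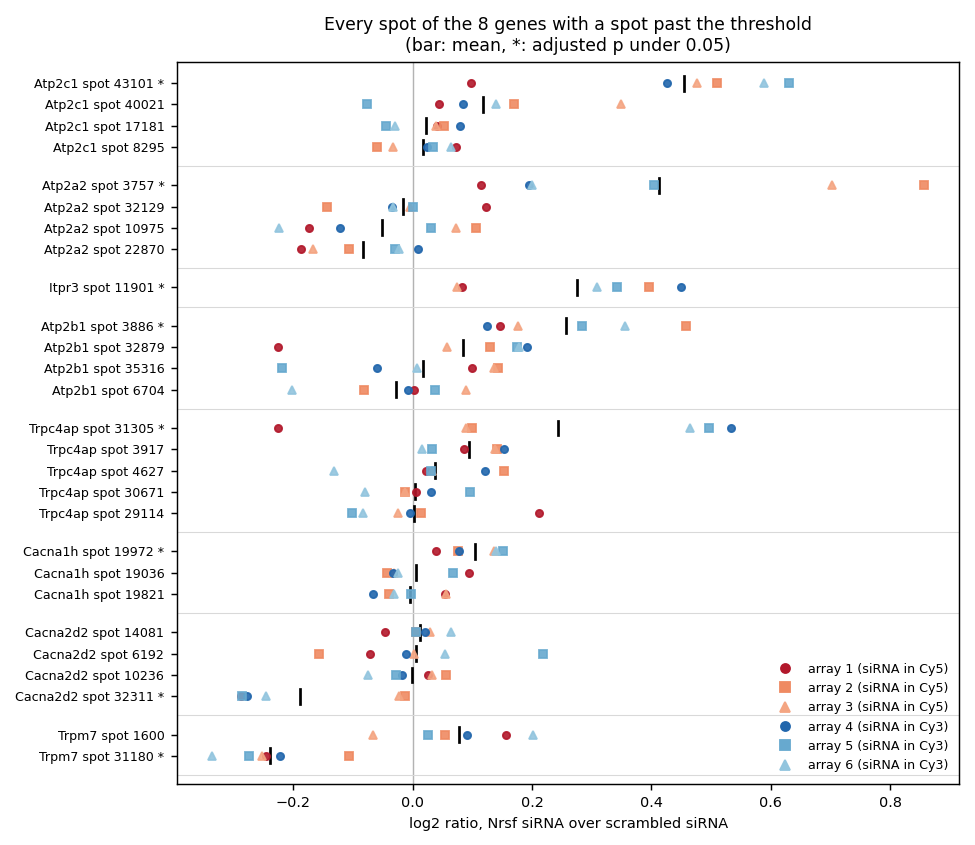
Log2 ratio of Nrsf siRNA over scrambled siRNA (x axis) for every spot of the 8 genes with a spot past the test. Points are the 6 arrays, bars mean ratios, and an asterisk marks a spot with an adjusted p under 0.05. The genes were chosen for having such a spot, and in no gene with several spots did another spot pass.

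The count of members past the test turned on array 1. Fitted on arrays 2 to 6, 10 members passed (15.6%), 9 higher (14.1%) and 1 lower (1.56%), while 25.9% of all genes passed, 13.7% higher and 12.2% lower. The members that were higher were Itpr3 at 0.30, Atp2c2 at 0.22, Trpm2 at 0.20, Atp2c1 at 0.17, Trpv2 at 0.14, Atp2b1 at 0.11, Atp2a2 at 0.098, Cacna1c at 0.091 and Trpc4ap at 0.084. Trpm7 was the member that was lower, at -0.089. With or without array 1, the share of members past the test was below that of all genes.

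The partners of these channels and pumps were read from lists of other calcium signalling genes, of which 96 of 102 were tested. Of these, 9 rose and 4 fell, 13.5% beside the 15.0% of all genes, with a median ratio of 0.011. The higher calls were 9.38% of the list, beside 5.88% of all genes, and the lower ones 4.17%, beside 9.11%. The lists were chosen from textbook knowledge with earlier results of these data known. Without array 1, 21 were higher (21.9%, beside 13.7% of all genes) and 4 lower (4.17%, beside 12.2%). On leaving out each array in turn, Plcb3, Slc24a2, Vdac3, S100a6, Cetn2 and Rcan1 passed every time. Plcl2, Jph4, Calm2 and Cabin1 passed without array 1 but not without any other array. Plcd3 and Ahcyl1 did not pass without array 5 or 6, nor Fkbp1b without array 4, 5 or 6. With the first spot per gene, Plcl2, Ahcyl1, Fkbp1b, Jph4, Slc24a2, Rcan1 and Cabin1 were not called, and with the median of the spots Ahcyl1 was not. Vdac3, Plcb3, Plcd3 and S100a6 were read by 1 spot each, so neither setting can change their values.

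Of 14 phospholipase C genes, which make or bind IP3, 3 rose and 0 fell (21.4% called, beside 15.0% of all genes). At an unadjusted p under 0.05 it was also 3 and 0 (21.4%, beside 25.7% of all genes). Plcb3, an enzyme driven by G proteins, ranged from 0.131 to 0.343 with a median of 0.23, and its mean was 0.23 ± 0.074 (adjusted p = 0.0038). Plcd3 ranged from 0.030 on array 1 to 0.355, with a mean of 0.22 ± 0.11 (adjusted p = 0.010). Plcl2, a relative without catalytic activity, had a mean of 0.16 ± 0.092 (adjusted p = 0.031) from spots at 0.33 and 0.0005. All 3 were above 0 on all 6 arrays, which adds nothing to the calls, since these rest on the same values.

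Of 27 endoplasmic reticulum and store partners, 3 rose and 0 fell (11.1% called, beside 15.0% of all genes). At an unadjusted p under 0.05 it was 4 and 0 (14.8%, beside 25.7% of all genes). Ahcyl1 encodes IRBIT, which binds the IP3 receptor and is displaced by IP3. It ranged from 0.019 on array 1 to 0.421, with a mean of 0.30 ± 0.15 (adjusted p = 0.011). Its 3 spots had means of 0.89, 0.011 and -0.0043, so 1 spot made the gene mean. Fkbp1b, which binds ryanodine receptors, had a mean of 0.23 ± 0.11 (adjusted p = 0.013) from spots at 0.42 and 0.049. Jph4, a junctophilin that ties the reticulum to the plasma membrane in neurons, had a mean of 0.13 ± 0.079 (adjusted p = 0.035), with array 1 at -0.025 and the others between 0.138 and 0.185. Its spots had means of 0.24 and 0.026.

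Of 14 mitochondrial and other calcium carriers, 1 rose and 1 fell (14.3% called, beside 15.0% of all genes). Slc24a2, a potassium-dependent sodium-calcium exchanger of neurons, ranged from 0.126 to 0.383, with a mean of 0.26 ± 0.088 (adjusted p = 0.0057) from spots at 0.51 and 0.017. Vdac3, a channel of the outer mitochondrial membrane, had ratios from -0.802 to -0.414 and a mean of -0.59 ± 0.13 (adjusted p = 0.00049), 66.4% of the scrambled level, or 1.51 times it with the opposite numerator. Vdac3 was read by 1 spot only. It was below 0 on all 6 arrays and moved further than any of the 64 channel and pump genes.

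Of 26 cytosolic buffers and sensors, 2 rose and 1 fell (11.5% called, beside 15.0% of all genes). S100a6, a small calcium-binding protein, read -0.030, 0.21 and 0.104 in Cy5 and 0.954, 0.782 and 0.7 in Cy3. Its mean was 0.45 ± 0.41 (adjusted p = 0.0019), and the orientations did not overlap. Its spot's dye term passed the test over all spots (adjusted p = 0.023), and the gene was not called without the dye term. Calm2, one of the calmodulin genes, had a mean of 0.093 ± 0.037 (adjusted p = 0.036). Cetn2, a centrin with calcium-binding domains that sits at centrioles, had a mean of -0.38 ± 0.15 (adjusted p = 0.0051). Of 15 calcineurin and NFAT genes, 2 fell and 0 rose (13.3% called, beside 15.0% of all genes). At an unadjusted p under 0.05 it was also 2 and 0 (13.3%, beside 25.7% of all genes). The 2 that fell were Rcan1 and Cabin1. Rcan1, a regulator of calcineurin, stood at -0.18 ± 0.057 (adjusted p = 0.0060), with spots at -0.35 and -0.002. Cabin1, a calcineurin-binding protein, stood at -0.093 ± 0.047 (adjusted p = 0.022).

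**Figure D4:**
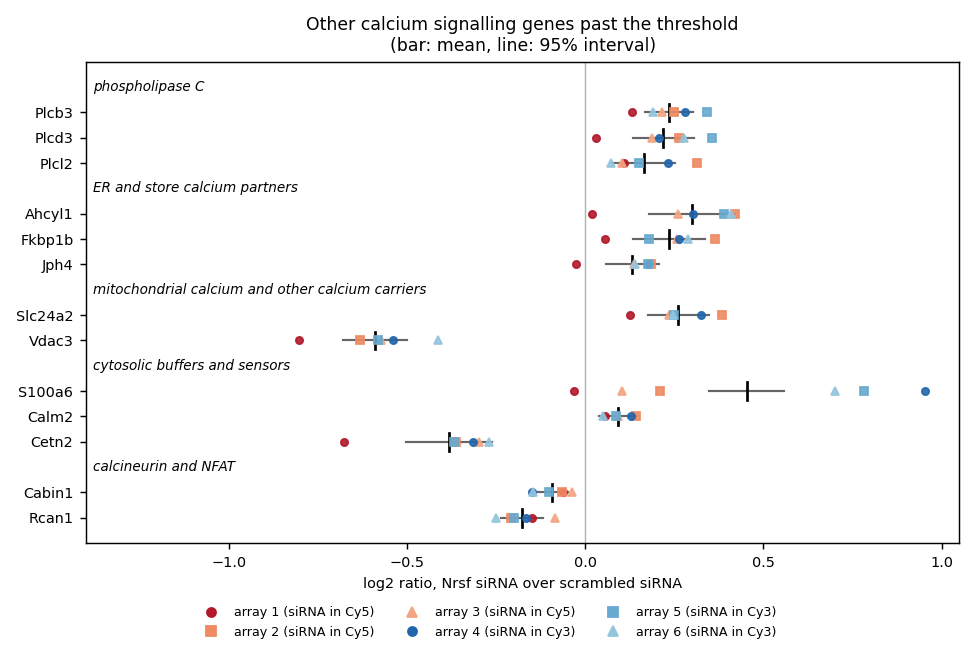
Log2 ratio of Nrsf siRNA over scrambled siRNA (x axis) for the 13 other calcium signalling genes past the test, grouped by list. Points are the 6 arrays, bars means and lines 95% confidence intervals; Vdac3 lies lowest at -0.59 and S100a6 splits by dye orientation.

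Markers of other cell types gave 0 genes past the test (limma) among 12 glial, 12 mesenchymal and 6 immune genes, beside 15.0% of all genes. At an unadjusted p under 0.05 there were 3, 1 and 0 (25%, 8.33% and 0%), beside 25.7% of all genes. The median ratios of these lists were 0.017, 0.0095 and 0.014. Ratios do not show whether such markers are present, and their part in the results was not tested.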

How the data were processed

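Per the labels' protocols, RNA came from a Trizol extraction, and Agilent's kit for linear amplification and labelling was used on 1 µg per sample. The deposited values are log2 ratios (base inferred) of 44290 spots, centred near 0. Named spots correlate between dye orientations at 0.359 to 0.708, so their values share a common direction. Spots without a gene name correlate at -0.68 to -0.404 between orientations and at 0.582 to 0.911 within them, so a dye pattern remains in those spots. Whether all spots or only the named ones were turned before deposit cannot be read from these values. For the scanner, feature extraction, background correction and normalization, details were not given in the sources used here. In the series, the design text also speaks of overexpression and human genes, and the sample labels were followed instead.

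Spots with 1 gene and a value on all 6 arrays (31866) were averaged per gene. Tests used limma 3.58.1 (lmFit, eBayes) in R 4.3.3 with a dye term, which left 4 residual degrees of freedom, and Benjamini-Hochberg adjustment over all genes or spots at 0.05. Errors are SD over 6 arrays, whose number limits the precision. The fit was tested on simulated data. Members and lists were chosen with earlier results of these data known. Genes named are Rest, members with a gene mean or spot past the threshold, the 6 further members with the largest mean in each direction, and partner genes past the threshold; further members were named by class after their values were seen. Promoter windows are RefSeq's (GRCm38.p6). Alternatives are those of the closing section, with statmod 1.5.0 for the robust one.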

Additional observations from a re-analysis of the deposited data

Results flagged for a closer look

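In 5 of 73 results examined (6.85%), 1 array lay far from the other 5 by Dixon's ratio at its 95% critical value, where chance gives about 1 in 20. Cacna2d4 read -0.494 on array 2 and -0.009 to 0.054 on the others. Ryr2 read 0.3905 on array 5 and -0.028 to 0.048 on the others. Orai2 read -0.077 on array 5 and 0.034 to 0.056 on the others. Atp2b3 read 0.107 on array 4 and 0.014 to 0.047 on the others. Trpm5 read 0.163 on array 1 and -0.091 to 0.004 on the others. None of these 5 genes passed the test, and why single arrays differ was not tested.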

How the results depend on the processing

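The number of arrays and array 1 limit these counts, and ratios do not show how far a signal lay above background. Members higher numbered 2, against 0 with an unmoderated test (8 at an unadjusted p under 0.05), 9 with array weights, 0 on the Cy5 arrays alone (1 unadjusted), and 0 to 9 when each array was left out, 9 of them without array 1, 1 without array 4 or 5 and 0 without array 6. Members lower numbered 0, against 1 with array weights and 0 to 1 on leaving out each array. Of all genes, 5.88% were higher, against 1.01% unmoderated, 12.6% with array weights, 0 on the Cy5 arrays, 13.7% without array 1, 2.91% without array 4, 1.73% without array 5 and 2.01% without array 6. Past the test either way were 2852 genes, against 193 higher and 677 lower unmoderated, 9 on the Cy5 arrays and 4921 without array 1. Member spots higher numbered 6, against 0 unmoderated, 12 weighted, 0 on the Cy5 arrays and 1 to 15 on leaving out each array; those lower numbered 2, against 0 unmoderated, 0 on the Cy5 arrays and 1 to 3. Other calcium signalling genes higher numbered 9, against 2 unmoderated, 17 weighted, 4 with the first spot per gene, 0 on the Cy5 arrays, 14 on the Cy3 arrays and 3 to 21 on leaving out each array; those lower numbered 4, against 0 on the Cy5 arrays and 3 to 4 on leaving out each array. The members' median was 0.020 on the Cy5 arrays and 0.0027 (without array 1) to 0.016 on leaving out each array. Rest was -0.054 with the first spot (adjusted p = 0.74) and -0.28 on the Cy5 arrays (0.20). Signs turned for 6 genes and for 1 spot past the test: with the first spot, Cacna2d2 (0.0062) and Trpm7 (0.077); with the median of spots, Atp2a2 (-0.0033); on the Cy3 arrays, Cacna2d4 (0.027); without array 2, Cacna2d4 (0.034); without array 1, Slc8a3 (-0.0042) and Ryr1 (0.0057); on the Cy5 arrays, the Trpc4ap spot (-0.012, against 0.24 on all arrays). On leaving out each array Slc8a3 ran from -0.0042 to 0.092, Cacna2d4 from -0.10 to 0.034. Using fewer arrays or 1 spot leaves less data; otherwise the cause was not tested.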
